A study of Homo sapiens with 4 samples.

Results

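Occupancy by the transcription factors MEIS1 and MEIS2 was examined around 8 genes of the EGF receptor system: the receptors EGFR, ERBB2, ERBB3 and ERBB4, and the ligand genes NRG1, NRG2, NRG3 and HBEGF. The genes were taken as a fixed list of family members. No cutoff on a measured value picked them, but the list was chosen with earlier results of these data known. They are 8 of the 20163 protein-coding genes of GENCODE 44 on GRCh37. A site or peak was counted at a gene when its summit, the position of highest enrichment, lay in the gene body or within 250 kb of either end. By this rule 16 of the 5169 reproducible sites of the series fell at the 8 genes, together with 132 of the 36796 peaks of replicate 1 and 164 of the 47449 peaks of replicate 2. A reproducible site is one whose rank held up in both replicates, at an irreproducible discovery rate (IDR) of at most 0.01. Strength is given as fold enrichment over input at the summit and as the −log10 p of the authors' peak calling, and read depth is unknown because peak lists hold no counts.

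Occupancy was measured by ChIP-seq, the sequencing of DNA recovered with chromatin by an antibody. The cells were hNSC, human neural stem cells bought as a commercial culture, left untreated and grown without serum on a Geltrex coating. There were 2 MEIS ChIP samples and 2 Input samples of the same untreated cells, Input being sheared chromatin without immunoprecipitation, and the study handled 2 batches of cells in parallel. The antibodies were a mixture of anti-MEIS1/2A and anti-MEIS1, so a peak does not tell which of these proteins was bound. No expression was measured in these samples, so neither the cell type nor the activity of any of the 8 genes could be checked, and a site near a gene does not show that the gene is its target.

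EGFR, ERBB2, ERBB3 and ERBB4 are receptor tyrosine kinases that signal as dimers from the cell surface. EGFR binds EGF and related ligands, ERBB3 and ERBB4 bind neuregulins, ERBB2 has no known ligand of its own and serves as a preferred dimer partner, and ERBB3 has little kinase activity and signals through its partners. NRG1, NRG2 and NRG3 encode neuregulins, and HBEGF encodes heparin-binding EGF-like growth factor, a ligand of EGFR and ERBB4. In neural tissue EGF is a mitogen used to keep neural stem cells dividing in culture, and neuregulin signalling through ERBB4 is known for its part in the migration and wiring of inhibitory neurons. MEIS proteins are homeodomain factors that often bind DNA together with PBX proteins, and their core recognition string is TGACAG.

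Some of the bound sequences are shown here because the results turn on them: the strongest sites at ERBB4, NRG3 and EGFR, the weaker ERBB4 site with the core nearest to its summit, the sites that hold the PBX-MEIS composite, a strong NRG3 site without the core, and the peak just upstream of HBEGF. Each is a stretch of the GRCh37 reference plus strand around a summit. Capitals mark TGACAG on either strand, so that CTGTCA is the core read from the minus strand. A site is called without the core when the 500 bp around its summit hold none.
ERBB4 far-upstream site: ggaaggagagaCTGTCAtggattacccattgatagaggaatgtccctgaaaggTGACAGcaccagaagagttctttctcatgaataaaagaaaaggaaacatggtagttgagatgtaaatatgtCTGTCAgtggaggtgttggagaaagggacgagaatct
ERBB4 near-upstream site: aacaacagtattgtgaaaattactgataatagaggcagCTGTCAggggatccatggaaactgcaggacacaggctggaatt
ERBB4 downstream site: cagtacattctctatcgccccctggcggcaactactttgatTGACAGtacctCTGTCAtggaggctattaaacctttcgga
NRG3 downstream site: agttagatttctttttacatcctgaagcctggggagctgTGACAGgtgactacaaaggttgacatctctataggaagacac
NRG3 intron 2 site without core: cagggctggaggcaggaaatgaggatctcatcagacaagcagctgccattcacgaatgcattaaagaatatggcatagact
NRG3 intron 2 site with composite: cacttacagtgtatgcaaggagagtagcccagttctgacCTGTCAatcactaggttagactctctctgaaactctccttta
EGFR intron 1 site: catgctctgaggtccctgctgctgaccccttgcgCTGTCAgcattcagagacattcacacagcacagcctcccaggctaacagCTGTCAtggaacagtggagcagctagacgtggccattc
HBEGF promoter peak: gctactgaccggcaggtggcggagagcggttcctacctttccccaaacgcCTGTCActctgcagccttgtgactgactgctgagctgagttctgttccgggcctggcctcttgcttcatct
In the same order the stretches lie at chr2:213574449-213574609, chr2:213461111-213461191, chr2:212022749-212022829, chr10:84917666-84917746, chr10:84332714-84332794, chr10:84157734-84157814, chr7:55199454-55199574 and chr5:139726419-139726539.

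A reproducible site lay at 4 of the 8 genes, namely EGFR, ERBB3, ERBB4 and NRG3, and at none of ERBB2, NRG1, NRG2 and HBEGF. That is 50% of the family beside 47.5% of all protein-coding genes with a site under the same rule, so the family as a whole stood near the background. The receptors held 12 of the 16 sites, at 3 of 4 genes, and the ligand genes held 4 sites, all at NRG3. Sites were unevenly spread, with 9 at ERBB4, 4 at NRG3, 2 at EGFR and 1 at ERBB3. A site inside the gene body itself was present at 3 of the 8 genes, beside 8.33% of all protein-coding genes. These 3 genes, EGFR, ERBB4 and NRG3, have bodies of 192.6 kb, 1163 kb and 1112 kb, and long bodies give more room for a site. Each gene was therefore set beside the 200 protein-coding genes nearest to it in body length. Those comparisons count sites in the body and the 250 kb on each side, and none is given for the body alone. No comparison between groups can be tested with 1 kind of cell, so all counts and values are given as descriptions of these libraries.

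**Figure D1:**
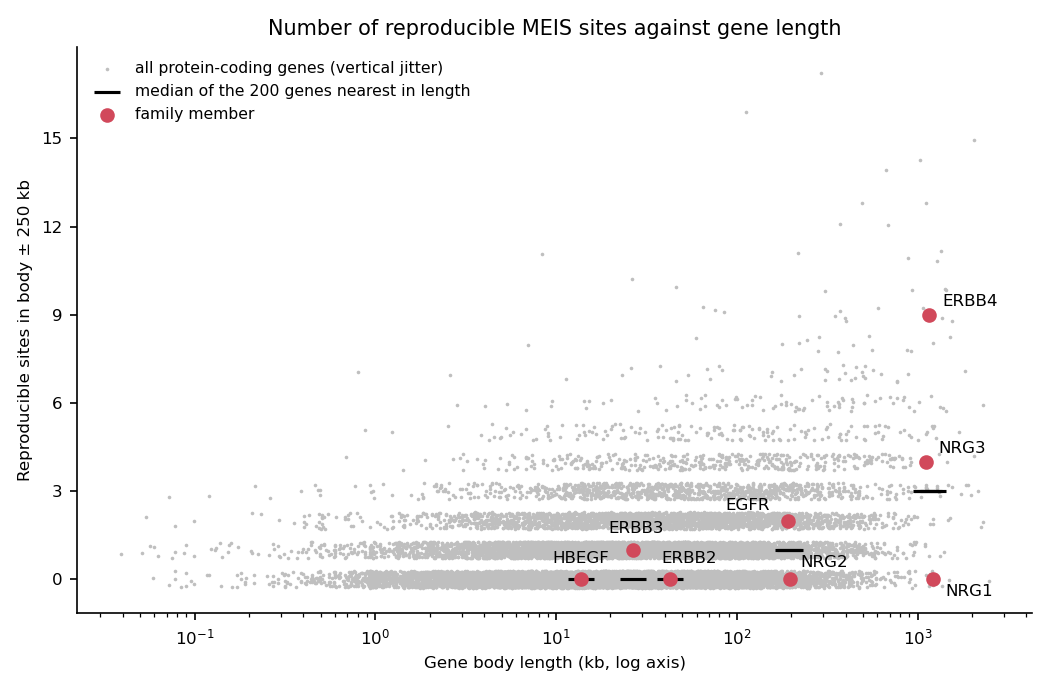
Number of reproducible MEIS sites in the gene body extended by 250 kb on each side (vertical axis) against gene body length in kb (horizontal log axis) for all 20163 protein-coding genes (grey, shifted vertically at random to separate them), the 8 family members (red) and the median of the 200 genes nearest in length to each member (black bars). ERBB4 with 9 sites lies well above its median of 3, whereas NRG1, a little longer, has 0.

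The ERBB4 gene (ENSG00000178568, chr2:212240442-213403565, minus strand) had the most sites of the family. It held 9 sites in its window, or 5.41 per Mb, beside 1.67 per Mb over the genome. The genome rate was taken over the full 3096 Mb of the assembly, unsequenced gaps included. Of the 200 genes nearest in length, with bodies of 633 to 2060 kb, the median had 3 sites and 7.5% had 9 or more. At a stricter IDR of 0.001 or less ERBB4 had 4 sites, and 80.5% of those genes had fewer. The rank of the 9 sites depended on the genes compared. With the 100 nearest in length 88% had fewer, and with the 400 nearest 95.75%. Among the 71 protein-coding genes with a body of 1 Mb or more, 12 had at least 9 sites, ERBB4 included. There were 43 peaks at ERBB4 in replicate 1 and 59 in replicate 2, against medians of 18 and 25 at genes of like length, of which 94.5% and 96.5% had fewer. No other protein-coding gene had its canonical start in this window.

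The strongest site of the family lay at chr2:213573459-213575598, 171 kb upstream of the canonical transcription start site (TSS) of ERBB4 and within the long non-coding RNA gene ENSG00000273118. Its fold enrichment over input was 73.8 in replicate 1 and 126 in replicate 2, and its −log10 p was 1138 and 1007. It ranked 24 of the 5169 sites by −log10 p, and its peaks ranked 22 in replicate 1 and 37 in replicate 2. Both replicates placed the summit on the same base. The sequence printed for the far-upstream site holds 3 copies of TGACAG, the nearest centred 3.5 bp from the summit and the others at 74.5 and 116.5 bp.

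Another pair of sites lay closer to the ERBB4 start on the upstream side. The site at chr2:213460722-213461820, 57.6 kb upstream, had a fold enrichment of 6.30 in replicate 1 and 6.19 in replicate 2, with a −log10 p of 38.0 and 19.4. Its summit fell within 0.5 bp of the centre of a TGACAG, as the near-upstream sequence shows, and it was the sole site of the 16 whose fold was not higher in replicate 2. The site at chr2:213504880-213505986, 102 kb upstream, had a fold of 3.56 and 8.10, a −log10 p of 13.8 and 22.7, and no TGACAG in 500 bp around its summit. It was the lowest of the 16 in replicate 1 and by the listed −log10 p, at rank 5007, but not in replicate 2.

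Intron 1 of ERBB4 contained 3 sites, and none of them had TGACAG in 500 bp around the summit. The strongest, chr2:213228878-213229880, lay 174 kb into the gene with a fold of 9.80 in replicate 1 and 16.6 in replicate 2, and its −log10 p of 69.1 and 69.2 was nearly the same in both. The site at chr2:213280702-213281672, 123 kb into the gene, reached a fold of 5.22 and 6.59 and a −log10 p of 24.8 and 20.1. The site at chr2:213400940-213402246 lay 1.88 kb inside the canonical TSS, with a fold of 4.73 and 6.81 and a −log10 p of 21.2 and 18.8. Each of these 3 sites held a single CATTCC, the string bound by TEAD factors, centred 14.5, 71.5 and 30.5 bp from the summit. The string was not particular to intron 1. It was also present at the ERBB4 sites 171 kb upstream, 102 kb upstream and in intron 25, and at 38.2% of all 5169 sites. Of the 9 sites, 6 lay no farther from the canonical TSS than the 174 kb of the strongest intron 1 site, 3 on either side.

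The remaining 3 sites at ERBB4 were far down the gene. The site at chr2:212255199-212256501, in intron 25 of 27 and 1147 kb from the TSS, had a fold of 7.18 in replicate 1 and 14.8 in replicate 2, with a −log10 p of 50.5 and 63.8, and 2 copies of TGACAG, the nearer at 75.5 bp. The site at chr2:212022399-212023272 lay 218 kb past the gene end, with a fold of 7.20 and 10.2 and a −log10 p of 41.4 and 32.8. It holds a PBX-MEIS composite, the core with a PBX recognition string joined directly to its 5′ side, 1.5 bp from the summit, and a further TGACAG a few bases on, as in the ERBB4 downstream sequence. For both of these sites the nearest canonical TSS of a protein-coding gene was that of CPS1, a urea cycle enzyme, at 835 kb and 601 kb.

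In intron 3, 692 kb into ERBB4, the site at chr2:212710156-212712075 was broad and less well defined. Replicate 1 called a single peak with a fold of 5.38 and a −log10 p of 25.8. Replicate 2 called 2 peaks in the same stretch, with a fold of 6.35 and 7.87 and a −log10 p of 17.7 and 23.7. The stronger replicate 2 summit lay 1022 bp from that of replicate 1, and the listed summit fell between them, 511 bp from either. This was the sole site of the 16 with none of the searched strings around its listed summit, and none of the 3 replicate summits had TGACAG either.

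Among ERBB4 peaks outside the reproducible list, 19 in replicate 1 overlapped a replicate 2 peak. The strongest pair lay in intron 1 at chr2:213020776-213021462, 382 kb from the TSS, with a fold of 3.94 in replicate 1 and 5.51 in replicate 2 and with a −log10 p of 13.6 and 12.2. A pair in intron 5, 794 kb from the TSS and chosen after its values were seen, was uneven. Its −log10 p was 7.54 in replicate 1 but 34.8 in replicate 2. Near the 8 annotated start sites, replicate 1 alone had a peak 695 bp upstream of an alternative TSS, with a fold of 1.91 and a −log10 p of 3.05.

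**Figure D2:**
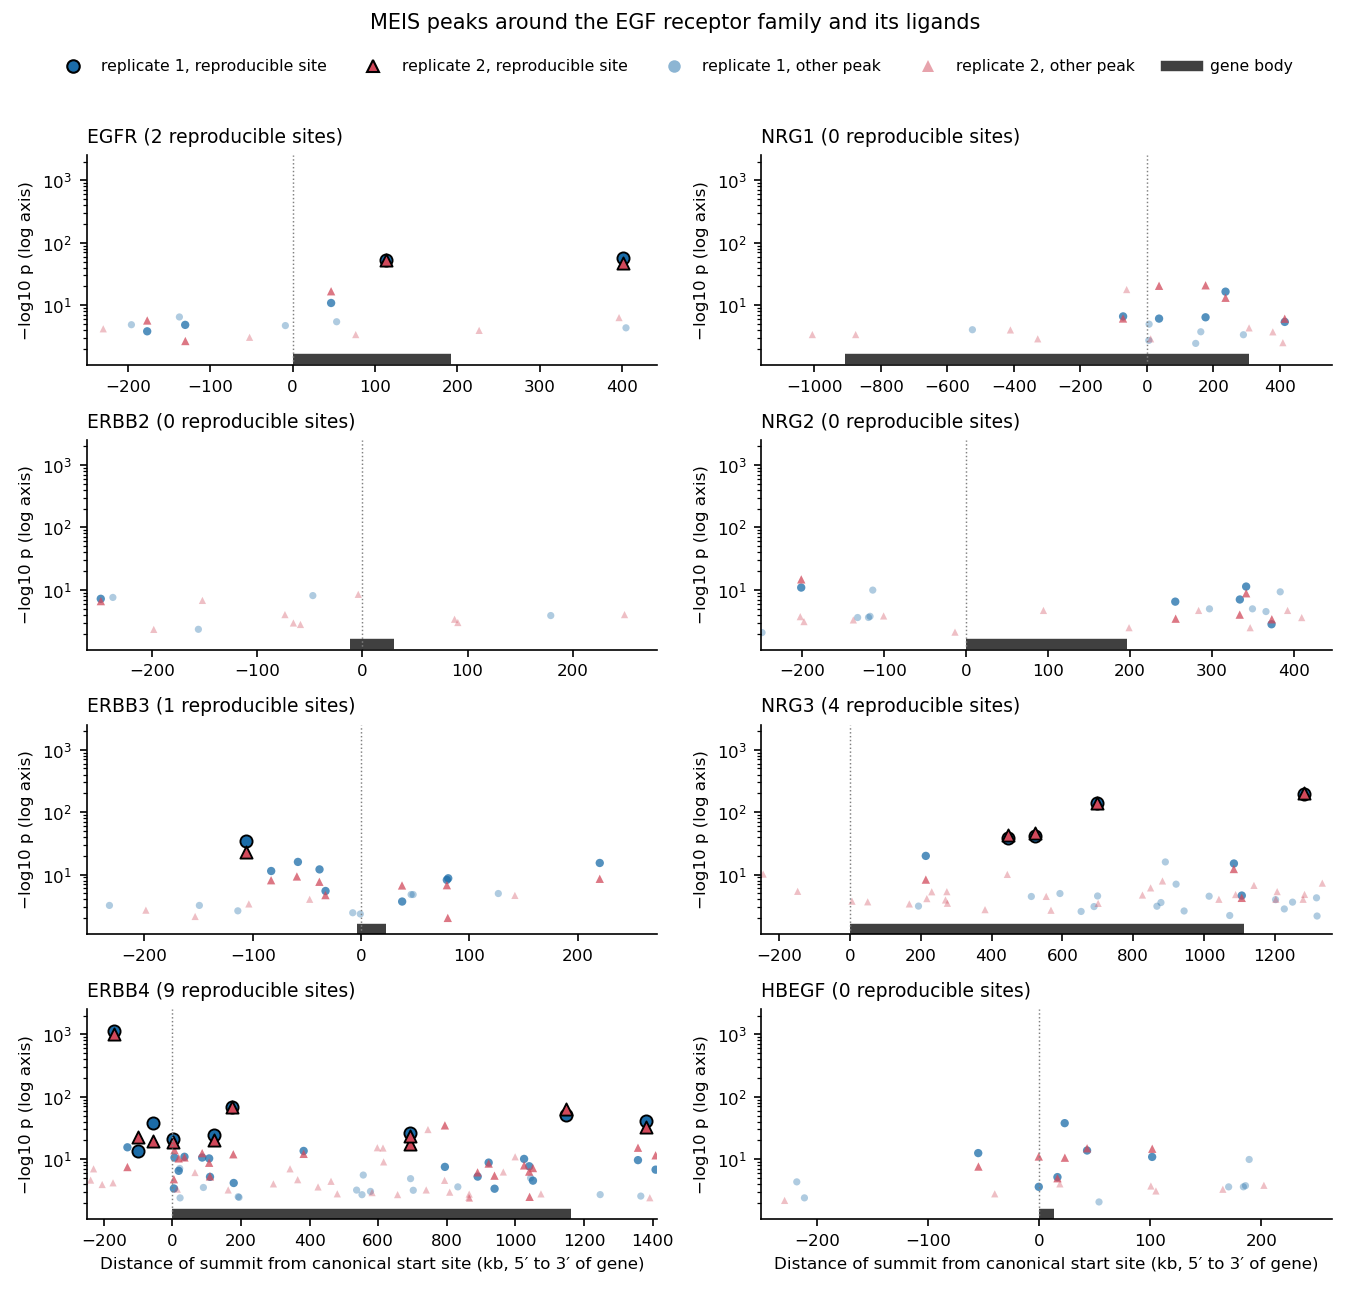
Peaks at each of the 8 genes, with the distance of the summit from the canonical TSS in kb along the gene (horizontal axis, a separate scale in each panel) against −log10 p on a log axis; circles are replicate 1 and triangles replicate 2, outlined symbols lie in reproducible sites, darker plain symbols overlap a peak of the other replicate, pale ones do not, and grey bars are gene bodies. The ERBB4 site 171 kb upstream exceeds 1000 in both replicates, and at ERBB2, NRG1, NRG2 and HBEGF no outlined symbol appears.

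EGFR (ENSG00000146648, chr7:55086710-55279321, plus strand) had 2 sites of closely similar strength. The site at chr7:55198394-55200044 lay in intron 1 of 27, 113 kb from the TSS, with a fold of 8.78 in replicate 1 and 13.6 in replicate 2, with a −log10 p of 53.5 and 52.2, and rank 1443. The printed sequence shows 2 of its 3 copies of TGACAG, the nearest 23.5 bp from the summit. The site at chr7:55487413-55488674 lay 209 kb beyond the end of EGFR, in intron 6 of LANCL2, whose TSS was 55.2 kb away. It had a fold of 8.90 and 12.7, a −log10 p of 57.4 and 47.8, and no TGACAG in 500 bp around its summit.

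The 2 sites at EGFR compare with a median of 1 at the 200 genes of like length, of which 31.5% had at least 2. The 10 peaks in each replicate were close to the medians of 9 and 11 at those genes. Of the peaks outside the reproducible list, the strongest pair overlapping in both replicates lay in intron 1 as well, at chr7:55132729-55133818 and 46.8 kb from the TSS, with a fold of 3.27 and 6.68 and a −log10 p of 10.8 and 16.7. No peak of either replicate lay within 1 kb of any of the 12 annotated EGFR start sites.

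ERBB3 (ENSG00000065361, chr12:56470583-56497289, plus strand) had 1 site, and it lay at the start of another gene. Of the 200 genes of like length, 39.5% had at least 1. The site at chr12:56367031-56368070 had its summit 0.348 kb upstream of the TSS of RAB5B, a small GTPase of early endosomes, and 106 kb upstream of ERBB3. Its fold was 5.67 in replicate 1 and 7.13 in replicate 2, its −log10 p was 34.7 and 22.8, and its single TGACAG was centred 200.5 bp from the summit. The window of ERBB3 holds the canonical starts of 29 other protein-coding genes, among them RNF41, an E3 ubiquitin ligase that promotes the degradation of ERBB3, and the same site falls in the window of RNF41. The site was not in the list at an IDR of 0.001 or less.

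Peaks were frequent around ERBB3 in both replicates. It had 17 in replicate 1 and 14 in replicate 2, beside medians of 7 and 8 at genes of like length, of which 93.5% and 87.0% had fewer. The strongest pair outside the list, at chr12:56414276-56415996 near the start of IKZF4, had a fold of 4.57 and 4.95 and a −log10 p of 15.9 and 9.32, with summits 956 bp apart. Within 1 kb of its 32 annotated start sites there was only a replicate 1 peak, 427 bp upstream of an alternative TSS, with a fold of 1.85 and a −log10 p of 2.34.

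ERBB2 (ENSG00000141736, chr17:37844167-37886679, plus strand) had 0 sites, as did 57.5% of the 200 genes of like length. Replicate 1 had 5 peaks and replicate 2 had 10, beside medians of 7 and 8.5 at those genes, of which 26.5% and 59.0% had fewer. The highest −log10 p of the ERBB2 peaks, 8.10 and 8.48, was the lowest such maximum among the 8 genes in each replicate. The median −log10 p of its peaks was 7.19 in replicate 1, above those of the other genes, and was 3.70 in replicate 2. A single pair overlapped between replicates, at chr17:37607346-37607787 and 0.076 kb upstream of the TSS of MED1, a Mediator subunit gene, with a fold of 2.71 and 3.72 and a −log10 p of 7.19 and 6.60. No peak lay within 1 kb of any of its 21 annotated start sites.

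NRG3 (ENSG00000185737, chr10:83634950-84746935, plus strand), whose product is a neuregulin that binds ERBB4, was the sole gene with a site among the 4 ligand genes. Its 4 sites compare with a median of 3 at genes of like length, of which 37.5% had at least 4. The strongest, chr10:84917230-84918452, lay 171 kb past the gene end and 982 kb from the TSS of GHITM, the nearest of any protein-coding gene. Its fold was 21.5 in replicate 1 and 34.4 in replicate 2, its −log10 p was 195 and 203, and it ranked 315. A TGACAG is centred 1.5 bp from its summit, as the NRG3 downstream sequence shows.

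Intron 2 of NRG3 contained 2 sites. That at chr10:84332098-84333507, 698 kb from the TSS, had a fold of 16.4 in replicate 1 and 25.4 in replicate 2, with a −log10 p of 140.3 and 140.6, and ranked 485. It was the strongest of the 7 sites without TGACAG in 500 bp. The site at chr10:84157317-84158138, 523 kb from the TSS, had a fold of 6.32 and 13.1 and a −log10 p of 42.0 and 46.7, and held the second PBX-MEIS composite, 3.5 bp from the summit and on the minus strand. In intron 1, 447 kb from the TSS, the site at chr10:84081242-84082005 had a fold of 7.16 and 12.1, a −log10 p of 38.8 and 43.0 and 2 copies of TGACAG.

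The 25 and 33 peaks at NRG3 exceeded those at 70.0% and 66.5% of genes of like length. Of these, 18 in replicate 1 and 26 in replicate 2 were found in a single replicate, or 72.0% and 78.8%, beside 51.0% and 62.0% of all peaks of the series. Outside the list the strongest overlapping pair lay in intron 6 at chr10:84719232-84720262, with a fold of 4.32 and 5.54 and a −log10 p of 15.0 and 12.3. No peak was called within 1 kb of its 7 annotated start sites, and the windows of NRG3 and ERBB4 were the only ones of the 8 without the canonical start of another protein-coding gene.

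NRG1 (ENSG00000157168, chr8:31496738-32713184, plus strand), the neuregulin with the widest set of isoforms, had 0 sites although it is the longest gene of the family, at 1216 kb. Genes of like length had a median of 3 sites, and 31 of the 200, or 15.5%, had none. Among the 71 protein-coding genes with a body of 1 Mb or more, 10 had no site, NRG1 included, and 12 had at least 9, ERBB4 included. Peaks at NRG1 numbered 11 in replicate 1 and 14 in replicate 2, beside medians of 18 and 26, and 23% and 19% of the genes of like length had fewer. The comparison sets of ERBB4, NRG1 and NRG3 are largely the same genes, with 191 of 200 shared by all 3.

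Peaks outside the reproducible list did overlap between replicates at NRG1, in 5 places. The strongest pair lay at chr8:32642583-32643286, 237 kb from the canonical TSS and within the gene body but beyond the canonical transcript, with a fold of 4.63 in replicate 1 and 5.12 in replicate 2, with a −log10 p of 16.5 and 13.1. The lowest −log10 p listed for any of the 5169 sites was 12.5, below both values of this pair. A pair in intron 5, chosen after its values were seen, was uneven. Replicate 2 gave it a fold of 8.21 and a −log10 p of 20.8, with 5 copies of TGACAG around that summit, and replicate 1 a fold of 2.82 and a −log10 p of 6.40. Near the 32 annotated start sites there was only a replicate 2 peak, 553 bp upstream of an alternative TSS, with a fold of 2.46 and a −log10 p of 2.89.

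NRG2 (ENSG00000158458, chr5:139226364-139422884, minus strand) had 0 sites, as had 38.0% of genes of like length. Its 14 peaks in replicate 1 and 16 in replicate 2 exceeded those at 80.5% and 74.0% of these genes, whose medians were 9 and 11. Its strongest overlapping pair, at chr5:139623972-139624856, lay 201 kb upstream, with PFDN1, a prefoldin subunit gene, as the gene with the nearest TSS at 58.3 kb. It had a fold of 3.23 in replicate 1 and 6.35 in replicate 2, with a −log10 p of 10.9 and 14.7. None of its 6 start sites had a peak within 1 kb. NRG2 and HBEGF are neighbours, and their windows overlap by 210 kb and share 6 peaks of replicate 1 and 5 of replicate 2, so the counts at these genes are not separate.

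HBEGF (ENSG00000113070, chr5:139712428-139726188, minus strand) was the sole member with a peak in both replicates within 1 kb of its canonical TSS. The replicate 1 summit lay 291 bp upstream, with a fold of 2.23 and a −log10 p of 3.62, and the replicate 2 summit 300 bp upstream, with a fold of 5.51 and a −log10 p of 11.1. The pair did not enter the reproducible list. Its 500 bp hold 2 copies of TGACAG, of which the printed stretch shows the copy nearest to the summits. Counting alternative start sites, 2 of the 8 genes had a peak in both replicates within 1 kb of a TSS, beside 14.2% of all protein-coding genes. The other gene was ERBB4, at an alternative TSS 110 kb from the canonical one, with a fold of 2.50 and 3.20 and a −log10 p of 5.22 and 5.32.

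Peaks around HBEGF numbered 13 in each replicate, more than at 88.0% and 78.0% of genes of like length, and none was in a reproducible site. The strongest overlapping pair lay at the start of PFDN1, 43.2 kb from the HBEGF TSS on its downstream side, at chr5:139682614-139683382, with a fold of 3.56 in replicate 1 and 6.07 in replicate 2, with a −log10 p of 13.8 and 15.0. Both values of this pair were above 12.5, the lowest −log10 p listed for any of the 5169 sites. A further pair was chosen after its values were seen. It lay 23.1 kb from the TSS on the same side, beyond the end of HBEGF, at chr5:139702308-139703585. Its replicate 1 peak had a fold of 7.16 and a −log10 p of 37.8, and its replicate 2 peak a fold of 4.76 and a −log10 p of 10.6.

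**Figure D3:**
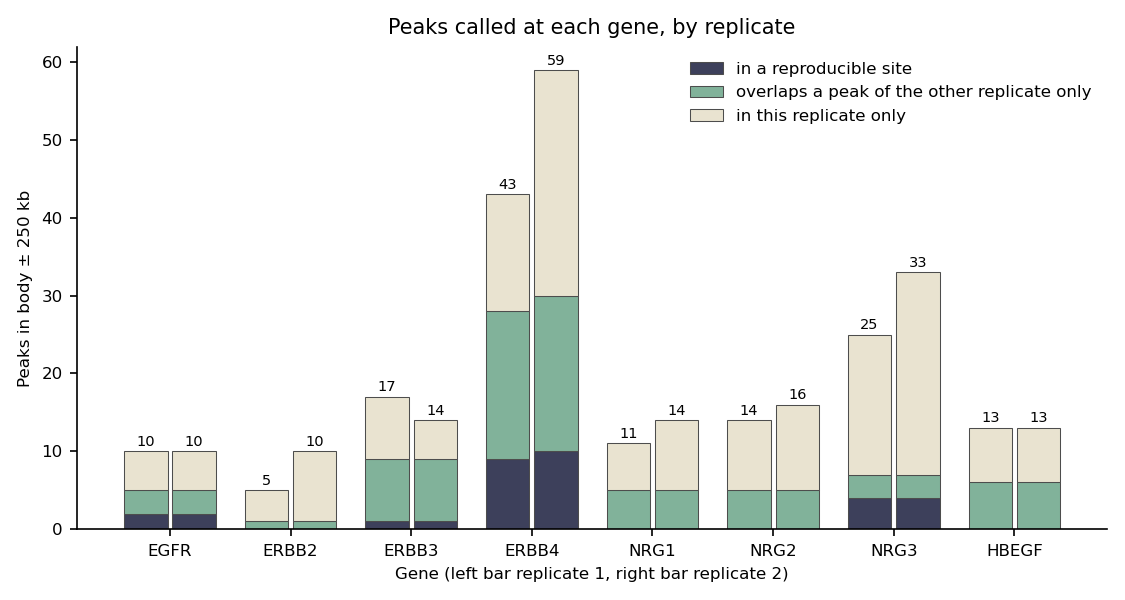
Number of peaks in the gene body extended by 250 kb on each side for each gene, left bars for replicate 1 and right bars for replicate 2, split into peaks in a reproducible site, peaks that overlap a peak of the other replicate by at least 1 bp but lie in no site, and peaks found in that replicate alone. ERBB4 has 43 and 59 peaks and ERBB2 5 and 10, and peaks of a single replicate are the largest class in both bars at EGFR, ERBB2, NRG3, NRG1, NRG2 and HBEGF.

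The 16 sites stood in much the same order in both replicates. Spearman's rho of −log10 p between replicates was 0.941 over the 16 sites and 0.779 over all 5169, as descriptions across sites of the same 2 libraries. Sites entered the list because their ranks held up in both replicates. These values therefore cannot measure how well the replicates agreed at these genes. The fold was higher in replicate 2 at 15 of the 16 sites and at 5036 of all 5169, with a median ratio of replicate 2 to replicate 1 of 1.55 (range 0.982 to 2.27), beside a median of 1.80 over all sites. The −log10 p was higher in replicate 2 at 7 of the 16, or 43.8%, beside 64.2% of all sites. Median fold was 7.17 in replicate 1 and 12.4 in replicate 2, close to the medians of 6.38 and 11.5 over all sites, and summits were a median of 8.5 bp apart beside 11 bp.

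**Figure D4:**
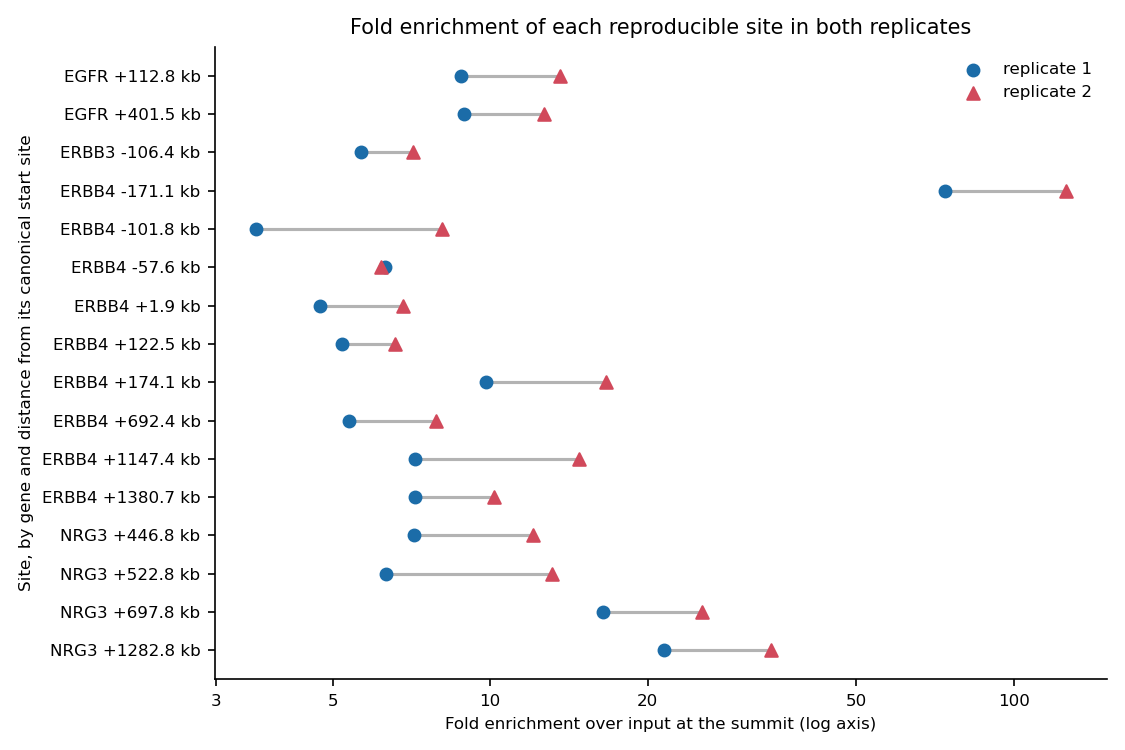
Fold enrichment over input at the summit (horizontal log axis) of each of the 16 reproducible sites in replicate 1 (circles) and replicate 2 (triangles), with sites labelled by gene and distance from its canonical TSS. Triangles lie to the right at 15 of the 16 sites, and the ERBB4 site 171 kb upstream stands apart at 73.8 and 126.

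Of the 16 sites, 2 lay within 5 kb of a canonical TSS, those near ERBB4 and RAB5B. That is 12.5% (Wilson 95% interval 3.50 to 36.0), an interval that holds the 8.43% of all 5169 sites. By canonical transcripts 10 were intronic, or 62.5% beside 42.0% of all sites, and 6 lay outside protein-coding genes, or 37.5% beside 55.9%. The windows were drawn around gene bodies, and the part of this in these shares was not tested. Inside the body of a family member there were 9. The nearest canonical TSS was that of the family member for 11 of the 16. GC content of the 500 bp around the summit had a median of 40.5%, beside 42.0% over all sites.

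Strings were searched on both strands in 500 bp around each listed summit. TGACAG was present at 9 of the 16 sites, 56.2% (Wilson 95% interval 33.2 to 76.9), beside 58.3% of all 5169 sites, and within 50 bp of the summit at 7, or 43.8%, beside 39.5%. The PBX-MEIS composite, which contains TGACAG, was present at 2 of 16, 12.5% (3.50 to 36.0), beside 4.93%. CATTCC was present at 7, 43.8% (23.1 to 66.8), beside 38.2%. The SOX strings ACAATG or ACAAAG were present at 10, 62.5% (38.6 to 81.5), beside 71.0%. Within 50 bp of the summit the SOX strings were present at 2, or 12.5%, beside 31.3%. CATTCC was that near at 2, or 12.5%, beside 12.7%. For each string searched in 500 bp the share over all sites lay within the interval for the 16. No interval is given for the shares within 50 bp. Sites with and without TGACAG were mixed within genes, with TGACAG at 4 of 9 sites at ERBB4 and at all but 1 of the 4 at NRG3.

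**Figure D5:**
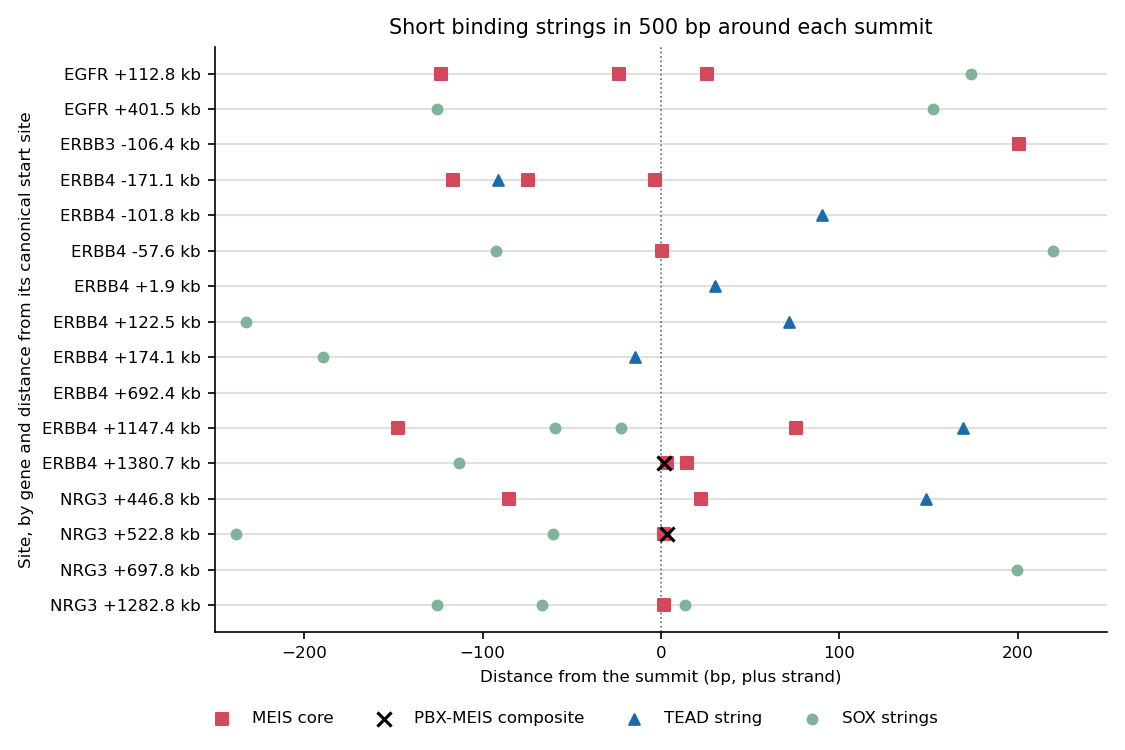
Position in bp from the summit on the plus strand (horizontal axis) of the MEIS core (squares), the PBX-MEIS composite (crosses), the TEAD string (triangles) and the SOX strings (circles) in 500 bp around each of the 16 summits, with sites labelled by gene and distance from its canonical TSS. The core lies within 50 bp of the summit at 7 sites and both composites lie within 3.5 bp, and the ERBB4 site 692 kb into the gene has no string.

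A wider list of 27 genes of the pathway was examined under the same rule. Of these, 14 had a site, or 51.9% beside the 47.5% of all genes, with 19 distinct sites, 1 of them the RAB5B site already described at ERBB3. Sites were found at 3 of 7 further ligand genes (EGF, TGFA and EPGN), 5 of 9 genes for inhibitors and receptor turnover (LRIG1, LRIG3, CBLB, RNF41 and SOCS4), 4 of 6 for adaptors and effectors (GRB2, SHC1, SOS1 and GAB1) and 2 of 5 for the shedding of ligands (ADAM17 and RHBDF2).

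The strongest of these sites were at LRIG3 and TGFA. LRIG3, of a family of membrane proteins whose member LRIG1 restrains EGF receptors, had 4 sites, the strongest 252 kb from its TSS on the downstream side, with a fold of 25.1 in replicate 1 and 30.8 in replicate 2, with a −log10 p of 234 and 153. At TGFA, which encodes the EGFR ligand TGF-alpha, the site lay 173 kb upstream in intron 1 of ADD2, with a fold of 11.7 and 36.9 and a −log10 p of 76.8 and 173. CBLB, an E3 ubiquitin ligase, had 3 sites, the strongest 62.8 kb upstream with a fold of 6.54 and 11.5. At EPGN, the gene for the ligand epigen, the site lay 200 kb upstream and 9.73 kb from the TSS of CXCL2, with a fold of 6.55 and 11.8. At SHC1, an adaptor, it lay 235 kb upstream and 0.147 kb from the TSS of THBS3, with a fold of 6.46 and 10.3. None of these 5 strongest sites of the wider list reached the fold of the ERBB4 site 171 kb upstream in either replicate.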

How the data were processed

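MEIS1/2 ChIP-seq peaks came from 2 MEIS ChIP samples of hNSC, with 2 Input samples that enter only through peak calling. Groups were read from the sample titles. Per the study's methods and the labels, paired reads of 36 bp were trimmed with cutadapt 1.16 and mapped to GRCh37 with bowtie2 2.3.0. Filtering with samtools 1.2 kept a mapping quality of 30 or more, and duplicates were removed with Picard 2.15.0, which leaves near-identical repeats poorly covered. The authors called peaks in each replicate against input with MACS2 (version not given in the sources used here) at a p-value of 0.01, and derived reproducible sites with IDR 2.0.3, the irreproducible discovery rate.

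The deposited peak lists give fold enrichment over input, a linear ratio, and −log10 p and −log10 q. The deposited list of sites gives a scaled IDR score and −log10 p, and 8 per-replicate columns in it were not used. A site's value in a replicate is that of the strongest overlapping peak there. Peak lists hold no read counts, so library depth is unknown, and so is which wash protocol each replicate received. Wilson 95% intervals cover the number of sites alone.

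Gene models were GENCODE 44 mapped to GRCh37. Positions refer to canonical transcripts and start sites to any transcript. Genes of like length were the 200 nearest in log body length. The strongest pair outside the list was chosen by the lower −log10 p of both replicates. Every site at the 8 genes was named, with that pair and any peak within 1 kb of a start site. Of the pathway list, the 5 genes with the strongest sites were given values. The members, lists and rules were chosen with earlier results of these data known. Scripts ran in Python 3.11.15 with pandas 2.3.3, scipy 1.17.1 and pysam 0.24.0, and counting was tested on simulated data in 7 checks, of which 0 failed. Other windows, thresholds, lengths and single replicates were tried as alternatives.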

Additional observations from a re-analysis of the deposited data

How the results depend on the processing

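The counts at the 8 genes depended on window and threshold. The 16 sites became 10 with 100 kb on each side, 9 in gene bodies alone and 10 at an IDR of 0.001 or less. They became 50 when overlapping peaks reaching a −log10 p of 5 in both replicates were counted. The 132 replicate 1 peaks became 67 in gene bodies and 66 at a −log10 p of 5 or more, and the 164 of replicate 2 became 85 and 80. Single replicates were tried with as many of their strongest peaks as there are sites. That gave 15 without replicate 1 and 17 without replicate 2, and HBEGF had 1 without replicate 2. ERBB4 kept 4 sites at an IDR of 0.001 or less, and 80.5% of genes of like length then had fewer, as against 92.5%. The site at ERBB3 was lost there and with 100 kb. Extending by 500 kb gave 22 sites, with 2 at ERBB2 and 1 at NRG1. The count of sites with TGACAG, 9 of 16 in 500 bp, depended on the stretch searched. It was 12 when the whole site was searched, beside 75.2% of all sites, and 8 in 200 bp, beside 46.4%. Of 126 alternative values 35 moved, by over 1.5 times for a count or outside the Wilson interval for a share of genes of like length, and 91 did not. No paired analysis was possible because no groups were compared. Depth and the wash protocol cannot be assessed from peak lists.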
